A study of Mus musculus with 16 samples.

Results

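The first 30 min of lipopolysaccharide (LPS) treatment were compared with no treatment in RAW264.7, a macrophage-like mouse line that Abelson leukaemia virus had transformed. Of the 16 libraries of the series, 6 were used: input RNA and ribosome-protected fragments (footprints) at 0 min (untreated), 15 min and 30 min of 100 ng/ml LPS from E. coli O111:B4. A gene was included in a material when it had at least 50 counts in the untreated or the 30 min library, which held for 8699 of 13832 genes in input, 8128 in footprints and 7987 in both. Of these, 166 genes in input and 124 in footprints reached 50 counts only in the 30 min library. Such genes had to be higher at 30 min to be included, so the counts for gene lists below are also given without them.

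Input was cytoplasmic RNA set aside from the lysate and fragmented by alkali, and footprints were the fragments that RNase I left in the monosome fractions of the same lysate, per the labels' protocols. Cycloheximide, which stalls translating ribosomes of the cytosol, was present during washing and lysis of all cells, the untreated ones included. Each combination of material and time was 1 library, so no difference between a pair of libraries has a replicate check. No untreated culture was taken at 15 or 30 min, so the effect of LPS and that of handling or time in culture cannot be told apart, and both treated times were compared with the same untreated library. The cells are 1 transformed line, and the labels name no separate cultures.

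All 6 libraries had totals of 6702930 to 6702932 counts, which is no measure of the original depth. Macrophage markers other than Itgam were high in all of them: Csf1r had 4008 to 4793 counts and Cd68 1630 to 3765. Itgam had only 20 to 48 counts. Markers of T cells, B cells, epithelium and fibroblasts that were in the table had 0 to 3 counts per library. The spread of single-gene log2 ratios around their median was 0.14 in input at 15 min and 0.22 at 30 min, and 0.19 and 0.23 in footprints, where counting alone gives a median standard error of 0.12 in each of these comparisons.

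LPS is recognised by the receptor TLR4 with CD14 and MD-2, and the signal runs through NF-κB and the MAP kinases. The first genes transcribed are immediate early genes, which need no new protein synthesis, and many of them encode transcription factors, cytokines with short-lived mRNA, and inhibitors that later shut the signal off. Input reads follow the amount of an mRNA, footprints follow the ribosomes on its coding sequence, and their ratio, called ribosome density here, follows ribosomes per mRNA. TOP mRNAs, which encode ribosomal proteins and elongation factors, begin with a C and a run of pyrimidines and are known for translation that depends on mTOR.

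Start sequences of 2 kinds were searched for, and examples are shown here. The first are gene starts with a match to the κB consensus, the site bound by NF-κB. They are 40-base stretches of the sense strand from RefSeq promoters on GRCm38.p6 (the mm10 assembly), with the match in capitals. The 5 genes were taken from those that rose in both materials by 30 min, so their rise is no result about the match.
Cxcl2, chr5:90903787-90903826, plus strand: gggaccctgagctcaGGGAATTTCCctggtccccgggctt
Cxcl10, chr5:92348968-92349007, minus strand: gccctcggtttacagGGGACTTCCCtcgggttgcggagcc
Nfkbia, chr12:55492652-55492691, minus strand: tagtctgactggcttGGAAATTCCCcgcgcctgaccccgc
Tnfaip3, chr10:19015398-19015437, minus strand: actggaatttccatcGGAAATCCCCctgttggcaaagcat
Ier3, chr17:35821606-35821645, plus strand: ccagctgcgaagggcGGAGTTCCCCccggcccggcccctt

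The second are the first 30 bases of 3 mRNAs of the translation machinery, from GENCODE M21 transcripts, with the C and the pyrimidines that follow it in capitals. They show the start that gives the TOP class its name. In the transcripts read, only 19 of 70 ribosomal protein genes and 8 of 25 other TOP genes had such a start.
Rps15a: CTCCCgaaagggggtgtgtgtgtgtgtctg
Eif3f: CTCTTTCTCggcaagatggcttctccggcc
Pabpc1: CCCCTTCTCCCCggcggttagtgctgagag

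At 15 min a small set of immediate early and inflammatory mRNAs had risen in input. A gene was called when its ratio to untreated was at least 2-fold in either direction and the exact 95% counting interval of the ratio excluded 1, an interval that covers counting error only. By this rule 11 of 8699 genes (0.126%) rose in input at 15 min and 0 fell (0%). The absence of falls rests on the thresholds: 16 genes were called higher and 14 lower with a minimum of 20 counts, and 39 and 36 with a threshold of 1.5-fold. Of the 11, 10 were still called at 30 min, and 5 of those 10 had been included only through the 30 min library.

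Tnf, the gene of the cytokine TNF (chr17:35199367-35202007), had 156, 805 and 5759 input counts at 0, 15 and 30 min. Its input was thus 5.15-fold (4.34 to 6.16) of untreated at 15 min and 37.0-fold (31.6 to 43.7) at 30 min. In footprints Tnf had 47, 595 and 8715 counts, 13.2-fold (9.76 to 18.1) and 200-fold (150 to 273) of untreated. Each step was larger in footprints than in input, and the ribosome density of Tnf was 2.55-fold (1.81 to 3.60) of untreated at 15 min and 5.41-fold (3.90 to 7.51) at 30 min.

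Fos encodes a subunit of the transcription factor AP-1, and Zfp36 encodes tristetraprolin, which binds AU-rich mRNAs such as that of Tnf and speeds their decay. Fos had 27, 156 and 756 input counts and 43, 144 and 1318 footprint counts at 0, 15 and 30 min. Zfp36 had 64, 278 and 2407 input counts and 111, 421 and 6890 footprint counts. Both genes were called in both materials at both times, as were Ier3, a stress-induced survival factor, and Dusp1, a phosphatase that switches off p38 and JNK. Ier3 had 90, 213 and 890 input counts and 80, 318 and 1861 footprint counts, and Dusp1 had 13, 38 and 357 in input and 19, 51 and 570 in footprints. With Tnf, these made 5 genes called in both materials at 15 min.

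For 4 genes input was called at 15 min and footprints only at 30 min: Ier2, Jun, Junb and Socs3. Ier2, an immediate early gene of the nucleus (chr8:84661331-84662852), had 47, 295 and 1836 input counts, 6.27-fold (4.60 to 8.72) of untreated at 15 min. Its footprints had 160, 300 and 4462 counts, 1.95-fold (1.60 to 2.38) at 15 min, just under the 2-fold threshold, and 30.1-fold (25.7 to 35.5) at 30 min. Ier2 density was therefore 0.31-fold (0.22 to 0.45) of untreated at 15 min and 0.77-fold (0.55 to 1.07) at 30 min.

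Jun, the other main subunit of AP-1 (chr4:95049036-95052222), had 67, 281 and 3517 input counts and 153, 207 and 4697 footprint counts. At 15 min its input was 4.19-fold (3.20 to 5.55) and its footprints 1.41-fold (1.14 to 1.74) of untreated, a density of 0.34-fold (0.24 to 0.47). At 30 min the footprint ratio of Jun had reached 33.2-fold (28.2 to 39.2) against 52.6-fold (41.3 to 68.1) in input. Junb, a relative of Jun in AP-1, had 315, 762 and 4310 input counts and 273, 376 and 3731 footprint counts, and its density was 0.59-fold (0.48 to 0.73) of untreated at 15 min and 1.08-fold (0.91 to 1.27) at 30 min. Socs3, an inhibitor of cytokine signalling through JAK kinases, had a footprint ratio of 1.88-fold at 15 min against 2.21-fold (1.45 to 3.44) in input, and its density interval included 1. Among these 4 genes the density interval at 15 min thus lay below 1 for Ier2, Jun and Junb, as it did for 7.96% of all genes. The same counts placed these genes in the class, so their low density is a description of it.

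**Figure D1:**
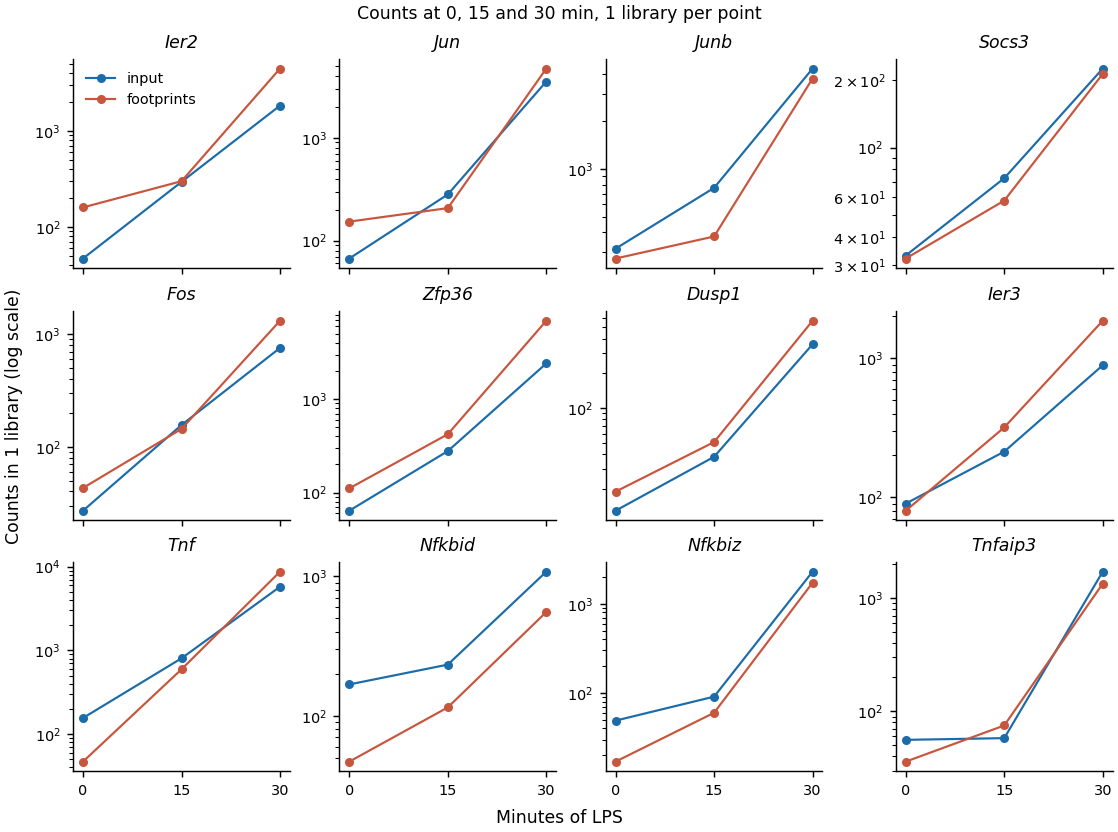
Counts (log scale, 1 library per point) of 12 genes in input (blue) and footprints (red) against minutes of LPS. Ier2, Jun and Junb had a steeper first step in input than in footprints, and Nfkbid, Nfkbiz and Tnfaip3 a steeper first step in footprints.

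The remaining input calls at 15 min were Ifi204, an interferon-inducible gene of a family of close paralogues whose reads may be shared, and Mospd3. Ifi204 had 29, 61 and 52 input counts and Mospd3 27, 56 and 54, and neither was called in footprints. Both ratios rest on 27 to 29 untreated counts.

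In footprints, 15 of 8128 genes (0.185%) were called higher at 15 min and 3 (0.0369%) lower. Of the 15, 14 were still called at 30 min, and 12 of those had been included only through the 30 min library. Of the 19 footprint genes on a list of NF-κB and mRNA decay feedback genes, 5 were called higher at 15 min, against 1 of 20 in input, and 8 at 30 min in each material (all genes 0.738% in footprints and 1.09% in input). Of these members 4 in each material had been included only through the 30 min library. Without them 1 of 15 in footprints and 1 of 16 in input were called at 15 min, and 4 in each at 30 min. Medians over the list at 15 min were 1.26-fold in footprints and 1.11-fold in input (1.15-fold and 1.09-fold without them), where all genes had medians of 1.00-fold in both.

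For 7 genes footprints were called at 15 min and input only at 30 min: Csf2, Dusp2, Nfkbid, Nfkbiz, Ppp1r15a, Tnfaip3 and Zc3h12a. Nfkbiz, which encodes the nuclear inhibitor and co-activator IκBζ (chr16:55811375-55838954), had 17, 60 and 1724 footprint counts and 49, 91 and 2293 input counts. Its footprints were 3.67-fold (2.11 to 6.70) of untreated at 15 min and its input 1.86-fold (1.30 to 2.68). Nfkbid, which encodes the related protein IκBNS, had 47, 115 and 555 footprint counts and 168, 233 and 1080 input counts, and its density was 1.84-fold (1.24 to 2.72) of untreated at 15 min. Tnfaip3, the ubiquitin-editing enzyme A20 that limits NF-κB (chr10:19000910-19015410), had 36, 75 and 1337 footprint counts. Its input counts were 56, 58 and 1705, so at 15 min its input ratio was 1.03-fold (0.70 to 1.52) while its footprint ratio was 2.16-fold (1.44 to 3.32).

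Zc3h12a encodes regnase-1, an RNase that cuts cytokine mRNAs, and had 10, 33 and 76 footprint counts against 34, 38 and 146 in input. Csf2, which encodes the growth factor GM-CSF, had 4, 40 and 125 footprint counts and 30, 46 and 89 input counts. Its footprints were 10.4-fold (3.76 to 40.0) of untreated at 15 min, a wide interval that comes from the 4 untreated counts. Dusp2, a phosphatase of the ERK and p38 kinases, had 22, 55 and 445 footprint counts, and its input rise was in the intermediate class defined below. Ppp1r15a, which encodes the phosphatase subunit GADD34 and carries upstream reading frames, had 109, 215 and 4200 input counts and 6, 19 and 208 in footprints. At 15 min its input ratio was just under the 2-fold threshold, so the order of its materials is one of calls. At 30 min its footprint ratio of 37.4-fold (16.9 to 103) lay beside an input ratio of 38.6-fold (31.9 to 47.2). Of the 5 of these genes with enough counts for a density interval, 4 had an interval above 1 at 15 min, where 9.23% of all genes did. The order of the materials was read from the same counts as the density, and the genes were included in footprints only through the 30 min library. The density values are thus a description of these classes.

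Outside these groups, Eno2, Mllt11 and Tmem189 were called higher in footprints at 15 min without a call in input. Eno2, the neuronal form of enolase, had 21, 68 and 82 footprint counts and 77, 88 and 80 input counts. It was 3.36-fold of untreated in footprints at 15 min and 4.22-fold at 30 min, while its input was 1.14-fold and 1.04-fold. Tmem189 was called at 15 min only, and reads of this gene may be shared with a read-through transcript. The 3 falls at 15 min, Rab4b and Fam122a among them, were also not called at 30 min.

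By 30 min the response had widened. In input 95 genes (1.09%) were called higher and 9 (0.103%) lower, and in footprints 60 (0.738%) were called higher and 8 (0.0984%) lower. In input 62 of the rises were late, with a ratio below 1.5-fold at 15 min and a direct 30 to 15 min interval that excluded 1, and 23 were intermediate, called at 30 min without meeting this or being called at 15 min. In footprints these counts were 30 and 16. Of the 62, 20 had been included only through the 30 min library, as had 18 of the 23, and in footprints 10 of 30 and 10 of 16. With scaling by total counts in place of TMM, which moved the median footprint ratio at 30 min by -0.11 on the log2 scale, the footprint calls were 54 higher and 20 lower at 30 min and 14 and 7 at 15 min.

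Of 24 immediate early genes in input, 5 were called higher at 15 min and 18 at 30 min (all genes 0.126% and 1.09%), with medians of 1.48-fold and 4.55-fold. In footprints 2 of 23 were called at 15 min and 15 at 30 min (all genes 0.185% and 0.738%), with medians of 1.06-fold and 6.28-fold. Of these genes, 10 in input and 8 in footprints had been included only through the 30 min library. Without them 9 of 14 in input and 8 of 15 in footprints were called at 30 min, with medians of 2.52-fold and 2.48-fold. The input interval lay above 1 for 10 of 24 at 15 min and 20 at 30 min, against 7.33% and 17.4% of all genes. Fosb, a further AP-1 subunit, had 0, 1 and 54 footprint counts, at least 19.4-fold higher at 30 min when the untreated library is set to 3 counts. Nr4a1, a nuclear receptor that needs no ligand, had 1, 5 and 280 footprint counts and 32, 28 and 487 input counts, and Egr2, a zinc finger factor, 6, 13 and 122 and 7, 7 and 188. For each of these 3 genes the input interval at 15 min included 1, and most of the rise fell between 15 and 30 min. Klf4, Klf10 and Bhlhe40, on the same list, were between 0.87-fold and 1.09-fold of untreated in input at both times.

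Among the chemokines, 5 of 7 in input and 5 of 6 in footprints were called higher at 30 min (all genes 1.09% and 0.738%). None was called at 15 min (all genes 0.126% and 0.185%). In each material 2 of them had been included only through the 30 min library, and without these the counts were 3 of 5 and 3 of 4. Cxcl2, which attracts neutrophils, had 7, 11 and 367 input counts and 4, 3 and 484 footprint counts. Ccl3 had 242, 334 and 860 input counts and 420, 635 and 2041 footprint counts, and Ccl4 84, 99 and 293 and 121, 149 and 401. Ccl9, another chemokine of the list, stayed between 0.95-fold and 1.11-fold of untreated in both materials. Of 6 cytokines, 4 were called in each material at 30 min: Tnf, Osm, Csf2 and Tnfsf9. Without those included only through the 30 min library, 2 of 4 were called in input and 1 of 3 in footprints. Nfkbia, which encodes the inhibitor IκBα, had 452, 882 and 4821 input counts and 722, 892 and 7952 footprint counts. Its input ratio at 15 min, 1.95-fold, was just under the threshold, and its footprint ratio was 1.28-fold, a density of 0.66-fold. On a list of interferon-stimulated genes, which does not hold Ifi204, none of 12 in input and none of 13 in footprints was called at either time. Of all genes 0.126% and 1.09% were called higher in input at 15 and 30 min, and 0.185% and 0.738% in footprints. At these shares a list of this length can hold no call without differing from all genes.

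A linear trend in minutes over the 3 libraries was tested with edgeR (quasi-likelihood F-test), and p-values were adjusted by the Benjamini-Hochberg method over all genes included. It has 1 residual degree of freedom and measures scatter about a straight line, so it is no test against biological replicates. In the input fit edgeR pooled this scatter over genes, with no weight on the scatter of the single gene. In input it called 502 genes higher (5.77%) and 199 lower (2.29%), and in footprints 165 (2.03%) and 22 (0.271%). DESeq2 called 41 and 0 in input and 112 and 2 in footprints. With total-count scaling edgeR called 142 higher and 107 lower in footprints. Over 30 min Tnf footprints rose by 7.72 ± 0.15 (SE) on the log2 scale (edgeR adjusted p = 3.8e-14). For genes whose rise came late the fitted line can overstate the measured ratio, as for Nfkbiz footprints, where the fitted rise was 8.42 on the log2 scale and the measured ratio at 30 min 110-fold.

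Among genes included in both materials, 32 were first called higher at 30 min in both. A further 33 were first called at 30 min in input and not in footprints, and 29 of these had a density interval below 1, where 15.1% of all genes did. The density uses the same counts that placed the genes in this class. Icam1, an adhesion molecule that binds leukocyte integrins (chr9:21015940-21028814), had 383, 404 and 943 input counts and 423, 452 and 559 footprint counts. Nlrp3, the sensor of an inflammasome (chr11:59541569-59566955), had 355, 409 and 1610 input counts and 260, 308 and 480 footprint counts. Its footprint ratio at 30 min was just under the 2-fold threshold, so Nlrp3 is in this class by a narrow margin. The density of Nlrp3 was 0.44-fold (0.36 to 0.53) of untreated at 30 min. Slc20a1, a phosphate transporter, had 702, 771 and 1591 input counts while its footprints stayed at 247, 254 and 243. Slc20a1 was chosen for mention after its values were seen.

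The converse, a call in footprints at 30 min with none in input, was found for 10 genes, 8 of them with a density interval above 1, where 13.3% of all genes had one, and again from the counts that placed the genes in the class. Map3k8, the kinase Tpl2 that links TLR4 to ERK, had 34, 42 and 91 footprint counts and 87, 103 and 151 input counts. Tagap, a GTPase-activating protein, had 104, 128 and 236 footprint counts and 149, 173 and 265 input counts. Both had input ratios between 1.7-fold and 1.8-fold at 30 min, so they missed the input call by the fold threshold. Eef2k, the kinase that inhibits elongation factor eEF2, had 26, 37 and 53 footprint counts and 58, 51 and 48 input counts. Map3k8, Tagap and Eef2k were also chosen after their values were seen. Among genes included in both materials, 4 were called lower in input and 9 in footprints at one of the times. With so few falls no overlap between materials can be read. Zbtb26, a zinc finger protein, had 108, 74 and 50 input counts, 0.46-fold (0.33 to 0.65) of untreated at 30 min, and Bbs10, a chaperonin-like protein of cilium assembly, had 51, 49 and 19, and both genes had too few footprint counts to be compared there. In footprints Dolk, the kinase that makes dolichol phosphate for glycosylation, had 102, 75 and 45 counts, 0.48-fold (0.33 to 0.68). With a minimum of 100 counts 1 fall was called in input at 30 min and 2 in footprints, against 9 and 8.

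**Figure D2:**
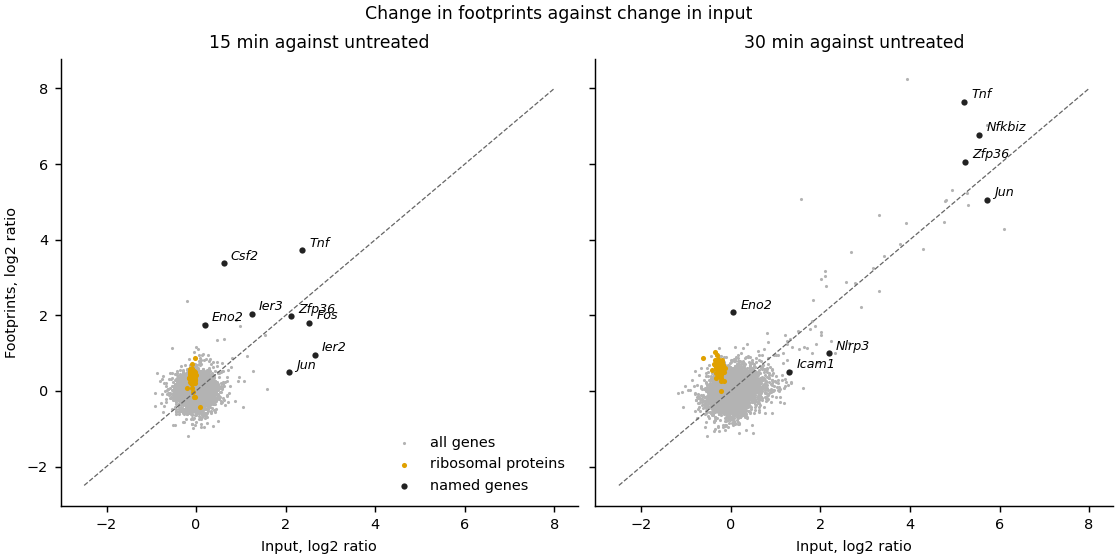
Log2 ratio to untreated in footprints against that in input, at 15 min (left) and 30 min (right), 1 point per gene included in both materials, with equal change on the dashed line. Tnf lay above the line at both times, Ier2 and Jun below it at 15 min, and ribosomal protein genes (orange) formed a group above it.

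Ribosome density was called higher for 12 of 7978 genes (0.15%) and lower for 10 (0.125%) at 15 min, and for 41 (0.514%) and 42 (0.526%) at 30 min. With total-count scaling these counts were 9 and 13 at 15 min and 23 and 90 at 30 min, so the balance of rises and falls rested on the scaling. The trend in density, tested as the interaction of material and minutes with the time point as a block, was called higher for 98 of 7987 genes (1.23%) and lower for 32 (0.401%), by edgeR, and for 87 and 109 with total-count scaling. For Tnf the interaction estimate was 2.35 ± 0.19 (SE, log2 over 30 min, edgeR adjusted p = 0.00018).

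The mRNAs of the translation machinery had more footprints per input read already at 15 min, and more again at 30 min. Of 70 cytosolic ribosomal protein genes, 66 had a density interval above 1 at 15 min and all 70 at 30 min, against 9.23% and 13.3% of all genes. Their median density was 1.38-fold of untreated at 15 min and 1.82-fold at 30 min, where all genes had medians of 1.00-fold and 0.99-fold. The 2-fold call was reached by 0 of 70 at 15 min and 17 at 30 min (all genes 0.15% and 0.514%). Against the 15 min libraries, which do not share the untreated library, the 30 min median was 1.34-fold, and 69 of 70 intervals lay above 1. The edgeR interaction test called 64 of 70 higher (all genes 1.23%) and DESeq2 60 (74 of all 7987 genes). DESeq2 gave no adjusted p in density for many named genes, such as Fos, Cxcl2 and Pom121, so not all 7987 could be called by it. With total-count scaling the median at 30 min was 1.69-fold, with 68 of 70 intervals above 1.

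Both materials contributed. Ribosomal protein mRNAs made up 9.29%, 8.77% and 7.77% of input counts at 0, 15 and 30 min, and 6.21%, 7.76% and 8.84% of footprint counts. In input 50 of 72 genes at 15 min and 69 at 30 min had an interval below 1, against 6.98% and 14.4% of all genes, with medians of 0.94-fold and 0.84-fold. In footprints 65 of 70 and 68 of 70 had an interval above 1, with medians of 1.30-fold and 1.53-fold, where 12.2% and 15.9% of all genes did. The edgeR trend called 39 of 72 lower in input (all genes 2.29%) and DESeq2 0. In footprints edgeR called 61 of 70 higher (all genes 2.03%) and DESeq2 58 (112 of all 8128 genes). Counts are relative to the library total, so fewer molecules of this class and a larger share of other mRNAs cannot be told apart. Many ribosomal protein genes have processed pseudogenes, with which reads may be shared.

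Rpl9, a protein of the large subunit, had 1021, 964 and 665 input counts and 315, 495 and 538 footprint counts, a density of 2.82-fold (2.38 to 3.35) at 30 min. Rpl24, another large subunit protein, had 843, 834 and 655 input counts and 532, 943 and 1000 footprint counts, a density of 2.61-fold (2.25 to 3.02). Rps15a, whose start is printed above, had 12598, 11889 and 10197 input counts and 7935, 11431 and 12588 footprint counts. In each of these genes footprints moved most between 0 and 15 min.

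The density of elongation factor mRNAs was also higher. Eef1a1, which brings aminoacyl-tRNA to the ribosome (chr9:78478453-78481724), had 121783, 112757 and 98615 input counts and 73932, 106207 and 135242 footprint counts, a density of 2.43-fold (2.40 to 2.46) at 30 min. Eef2, the translocase, had 31724, 28291 and 26458 input counts and 14126, 20455 and 25005 footprint counts, 2.29-fold (2.23 to 2.35). Of 26 TOP mRNAs other than those of ribosomal proteins, 24 had a density interval above 1 at 15 min and all 26 at 30 min (all genes 9.23% and 13.3%). Their medians were 1.26-fold and 1.44-fold, and 3 reached the 2-fold call at 30 min (all genes 0.514%). Eif3f, a subunit of initiation factor eIF3, had a density of 2.08-fold (1.92 to 2.24). Pabpc1, the poly(A)-binding protein, had 8066, 9927 and 13116 input counts and 4150, 5925 and 7454 footprint counts, so both materials were higher and its density was 1.19-fold (1.14 to 1.25).

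**Figure D3:**
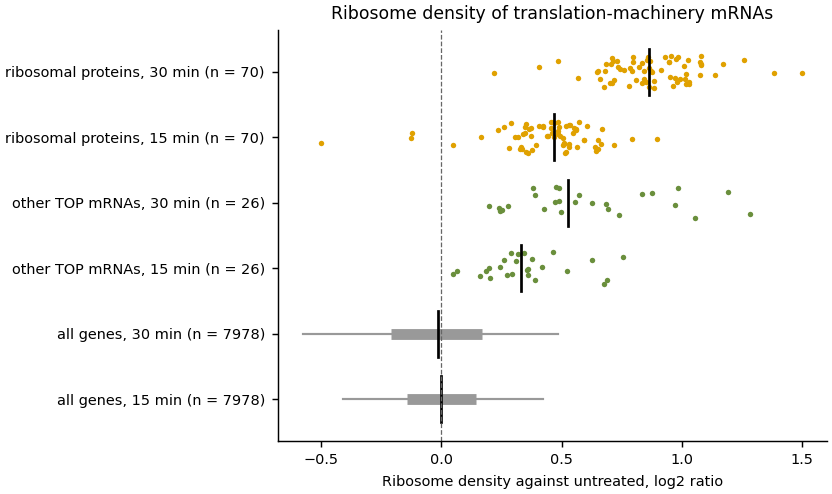
Log2 ribosome density relative to untreated, with 1 point per gene of the translation machinery and black bars at medians. Grey bars give the middle range of all 7978 genes, and the 70 ribosomal protein genes had medians of 1.38-fold at 15 min and 1.82-fold at 30 min.

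The start sequence was read from the first GENCODE transcript of each gene. A C followed by at least 4 pyrimidines at the first base was found in 19 of 70 ribosomal protein genes (27.1%), 8 of 25 other TOP genes (32%) and 441 of 7715 genes with a density interval (5.72%). Annotated starts can differ from the starts used in these cells. Ribosomal protein genes with and without the match had the same median density at 30 min, 1.82-fold. Among genes called higher in density at 30 min, 6 of 40 (15%) had the match, and among those called lower 2 of 40 (5%).

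Density falls at 30 min were led by Pom121, Ttyh3, Setd1b, Ctdnep1, Nlrp3 and Syvn1. Pom121, a protein of the nuclear pore, had 171, 224 and 391 input counts and 204, 180 and 151 footprint counts, a density of 0.35-fold (0.26 to 0.46). Setd1b, a histone H3 lysine methyltransferase, had 94, 146 and 285 input counts and 118, 96 and 115 footprint counts. Ttyh3, a membrane protein of the tweety family, had 193, 201 and 272 input counts and 148, 100 and 63 footprint counts, so for this gene the footprints fell. Pom121, Setd1b, Nlrp3 and Syvn1 were called higher in input and not called in footprints, where Nlrp3 was just under the 2-fold threshold. Ctdnep1, a phosphatase of the nuclear envelope, was called in neither material, with 125, 184 and 236 input counts and 88, 68 and 54 footprint counts.

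The κB consensus, searched on both strands from 250 bases before to 50 after the RefSeq gene start, was found in 8 of the 36 genes with a promoter sequence among the 48 called higher in both materials at 30 min (22.2%). It was found in 2 of 30 among the 34 called in input and not in footprints (6.67%), in 299 of 6206 genes included in both materials (4.82%) and in 1175 of all 27025 promoters (4.35%). The 8 genes were Cxcl10, Cxcl2, Fos, Fosb, Ier3, Nfkbia, Nr4a1 and Tnfaip3. Of these, Cxcl2, Fos, Fosb, Nr4a1 and Tnfaip3 had fewer than 50 untreated counts in input, footprints or both. They were included in that material only through the 30 min library, and the share without such genes was not computed. The shares are therefore a description of the genes chosen. A match is a description of the sequence and not a bound site.

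The 45 min libraries, which lie outside the period compared, were read for the 35 genes called higher in input and not in footprints by 30 min. This look was chosen after the 30 min values were seen, and its ratios are of counts without TMM scaling. In 14 of them input was higher at 45 than at 30 min, and all 14 were called higher in footprints at 45 min. Icam1 went from 943 to 2321 input counts and from 559 to 2382 footprint counts, and Nlrp3 from 1610 to 3757 and from 480 to 2533. In 13 others input was lower at 45 than at 30 min, and 0 of 13 were called in footprints. The 30 min input library chose these genes, so a lower input value at 45 min is not independent of that choice. Of the other 8 genes, Cdkn1a, the cell cycle inhibitor p21, was the 1 called in footprints at 45 min. The share of all genes called higher in footprints at 45 min was not computed, so these counts stand without a background.

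**Figure D4:**
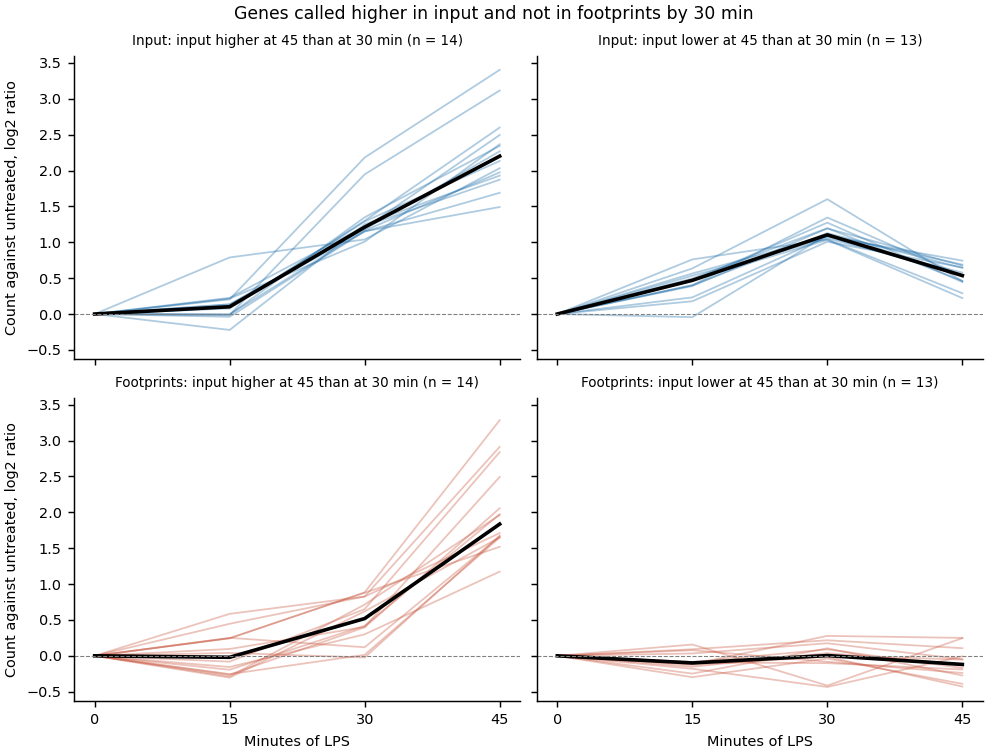
Log2 ratio to untreated of input (top) and footprints (bottom) from 0 to 45 min, for the 14 genes whose input was higher at 45 than at 30 min (left) and the 13 whose input was lower (right), with 1 thin line per gene and the median in black. Ratios are of counts without TMM scaling. Footprints were called higher at 45 min for all 14 genes on the left and for 0 of 13 on the right. The share of all genes called at 45 min was not computed.

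Counts at the thresholds were as follows. In input 26 genes had exactly 50 counts in the larger of the untreated and 30 min libraries and 18 genes had 49 and were left out, and in footprints these numbers were 29 and 33. At 30 min 31 input genes had a ratio of 1.8-fold to 2-fold with an interval above 1, and 18 one of 2-fold to 2.2-fold.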

How the data were processed

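Input and footprint libraries were compared within each material. The authors deposited a table of whole-number read counts per gene. Beside each column stands a size-factor-normalised signal, per the file headers, which was not used here. Bowtie 0.12.8, DESeq2 1.18.1 and mm10 are named in the submitters' processing notes, while the counting method, its strand setting and its rule for multiple matches were not given in the sources used here. Deposited counts summed to 6702930 to 6702932 per library, a near equality whose origin the sources do not state.

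Counts were scaled by TMM factors (edgeR 4.0.16, R 4.3.3). Ratios have exact 95% conditional binomial (Clopper-Pearson) intervals, and a count of 0 was set to 3. Density intervals came from the 4 counts of a ratio of ratios and need at least 10 counts in all 6 libraries. Trends over 0, 15 and 30 min were fitted with edgeR's quasi-likelihood test and DESeq2 1.42.0 as the alternative, and the fits were tested on simulated data with 200 changed genes (edgeR in each material and in density, DESeq2 in density), in which DESeq2 missed more of the changed genes than edgeR. P-values measure only the scatter of these libraries about a line. The SE given with an edgeR trend is the size of the estimate divided by the square root of its F statistic. Both materials of a time share 1 lysate, per the labels' protocols, so the time point is a block in the density fit.

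The members and gene lists were chosen with earlier results of these data known. Genes named are, per material and time, the 10 called rises and 5 called falls (6 and 6 for density) whose interval bound was farthest from 1, and members of the lists. Alternatives were total-count and DESeq2 scaling, minimum counts, the fold threshold, the tool and the block. Values of some single genes are not reported here.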

Additional observations from a re-analysis of the deposited data

Results flagged for a closer look

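For 16 of the genes described above the change over 0 to 30 min differed between footprints and input by the edgeR interaction test, adjusted over all 7987 genes. Density rose for Tnf (adjusted p = 0.00018), Eef1a1 (0.00028), Rpl9 (0.0004), Eef2 (0.0004), Rps15a (0.00045), Rpl24 (0.00052) and Eif3f (0.00079). It also rose for Ier3 (0.0052), Nr4a1 (0.0071) and Csf2 (0.044), the latter 2 with few untreated footprint counts. Density fell for Pom121 (0.0031), Ttyh3 (0.0063), Setd1b (0.0083), Ctdnep1 (0.023), Slc20a1 (0.037) and Nlrp3 (0.038). By DESeq2 the adjusted p was 1.1e-10 for Tnf, 1.5e-08 for Eef1a1, 0.042 for Ier3 and 0.14 for Nlrp3, and DESeq2 gave no adjusted p for Nr4a1, Csf2, Pom121, Ttyh3, Setd1b and Ctdnep1.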

How the results depend on the processing

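No named gene's ratio changed direction under the scaling alternatives, but with total-count scaling falls outnumbered rises in density: 9 higher and 13 lower at 15 min, and 87 and 109 for the trend. The median density of histone mRNAs at 30 min went from 1.05-fold to 0.97-fold. At a minimum of 20 counts the calls at 2-fold numbered 30 in input at 15 min (16 higher and 14 lower, against 11 and 0 in the report), 38 in footprints at 15 min (18) and 117 at 30 min (68). At a minimum of 100 counts they numbered 11 in footprints at 15 min, 8 in density at 15 min (22) and 48 at 30 min (83). At 1.5-fold they numbered 75 (39 higher, 36 lower) and 385 in input at 15 and 30 min (11 and 104), 117 and 356 in footprints, and 230 and 603 in density. DESeq2 trends numbered 41 in input (701 by edgeR), 114 in footprints (187) and 77 in density (130), and total-count scaling gave 196 in density. Without the replicate block, that is without the time point that pairs input with footprints, edgeR called 100 genes in density, 83 higher and 17 lower. Of 77 values for named genes, 1 call was lost with total-count scaling, that of Mpst density at 15 min (1.99-fold), and none with DESeq2 size factors. The cause of these differences was not tested, apart from the number of genes that the count minimum admits. Leaving out a library was not run, because each group has 1 library and 2 time points leave no residual degrees of freedom. Genes with few untreated counts, such as Csf2 and Nr4a1 in footprints, have ratios known only within wide intervals.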

Other observations

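The 13 mitochondrially encoded mRNAs moved in different ways in the 2 materials. They made up 4.38%, 4.68% and 4.82% of input counts at 0, 15 and 30 min. Of footprint counts they made up only 0.47%, 0.43% and 0.59%, so their density rests on a small share of footprints. In input 12 of 13 had an interval above 1 at 15 min (7.33% of all genes did) and 9 at 30 min (17.4%), where 3 had one below 1 (14.4%), with medians of 1.14-fold and 1.23-fold. In footprints 7 of 13 had an interval below 1 at 15 min (10.5%) and all 13 an interval above 1 at 30 min (15.9%), with medians of 0.92-fold and 1.39-fold. Their density had a median of 0.79-fold at 15 min, with 10 of 13 intervals below 1 (7.96%). At 30 min 7 density intervals lay above 1 (13.3%) and 5 below (15.1%), and the interaction test called 0 of 13 by edgeR and 0 by DESeq2.

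Replication-dependent histone mRNAs had an input median of 1.01-fold at 15 min and of 0.78-fold at 30 min, when 43 of 53 intervals lay below 1, against 14.4% of all genes. The edgeR trend called 26 of 53 lower in input (all genes 2.29%) and DESeq2 0. Footprints of 34 of 54 histone genes had an interval below 1 at 30 min, against 15.5% of all genes. The footprint trend was called lower for 10 by edgeR (all genes 0.271%) and 1 by DESeq2. Histone genes are near-identical copies, so values of single genes are uncertain.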
